A study of Arabidopsis thaliana with 18 samples.

Results

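The levels of 10 genes of the phosphate starvation response were followed in the aboveground parts of Arabidopsis seedlings whose roots were inoculated with the endophytic fungus Serendipita indica. The 10 genes were taken by their identifiers, which are SPX1 (AT5G20150), SPX2 (AT2G26660), SPX3 (AT2G45130), SQD1 (AT4G33030), SQD2 (AT5G01220), MGD2 (AT5G20410), MGD3 (AT2G11810), PS2 (AT1G73010, also called PPsPase1), PECP1 (AT1G17710) and PAP17 (AT3G17790). They are 10 of the 33039 genes in the expression table. Levels are in TPM, each transcript's share of a library's transcripts scaled to a common total. A filter on low values (1 TPM or more in 3 or more samples) kept 20044 genes, among them 8 of the 10. SPX3 and PS2 did not pass.

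The study asked how a warm environment alters the response of the shoot to a fungus living in the root. All plants were wild type and were first raised at 22°C on half-strength MS medium with sucrose. Seedlings inoculated with the fungus on PNM plates at 9 days of age (Si) and control seedlings (CK) were then kept at 22, 25 or 28°C for 7 days with 12 h of light per day. Each of the 6 groups (Si and CK at each temperature) had 3 libraries of total RNA, which are described as biological replicates, giving 18 samples.

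Plants short of phosphate switch on a set of genes under the transcription factor PHR1 and its relatives, which bind a short palindromic DNA sequence in the promoters of their targets. SPX proteins hold PHR1 back when phosphate is plentiful, and several SPX genes are themselves PHR1 targets. Among the other targets, some exchange the phospholipids of membranes for sulfolipids and galactolipids, which carry no phosphate, and others encode phosphatases that release phosphate from organic compounds or pyrophosphate. The 10 genes cover these roles. Phosphate content is not among the measurements, so the values below are transcript levels only.

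The PHR1 binding sequence GNATATNC (N is any base, and the sequence reads the same on both strands) was looked for in front of each gene. The genes were not chosen by it. In the 250 bases before the annotated start, 3 of the 10 genes held it, namely SPX3, MGD2 and PS2, against 1498 of 27443 protein-coding genes (5.46%). Among 50 further phosphate genes it was present in 11 (22.0%). In 1000 bases, a length chosen after the data were seen, 6 of the 10 genes held it, against 20.3% of all protein-coding genes and 54.0% of the further phosphate genes. SPX2, SQD1, MGD3 and PAP17 had no match in either window. The sites below are those of the 6 genes with a match, the nearest to the start in each and both in SPX3. They were read 5′ to 3′ on the strand of the gene from the RefSeq genome, assembly TAIR10.1, with the matching bases in capitals.
SPX1 (chr5:6801527-6801574, plus strand): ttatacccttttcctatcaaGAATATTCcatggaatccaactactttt
SPX3, distal (chr2:18606177-18606224, plus strand): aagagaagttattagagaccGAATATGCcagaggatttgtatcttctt
SPX3, proximal (chr2:18606300-18606347, plus strand): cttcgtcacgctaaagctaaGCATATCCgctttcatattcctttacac
SQD2 (chr5:90430-90477, minus strand): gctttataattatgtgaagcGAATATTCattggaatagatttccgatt
MGD2 (chr5:6896429-6896462, plus strand): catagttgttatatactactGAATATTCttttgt
PS2 (chr1:27466538-27466585, minus strand): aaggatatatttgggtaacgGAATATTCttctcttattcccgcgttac
PECP1 (chr1:6092362-6092409, minus strand): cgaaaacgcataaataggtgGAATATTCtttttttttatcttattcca

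The form GAATATTC stood in SPX1, SQD2, MGD2, PS2 and PECP1. The match began 14 bases before the start in MGD2 (with a further match at 501), 213 and 90 bases before it in SPX3, 217 in PS2 (with a further match at 602), 340 in SQD2, 362 in PECP1 (with a further match at 757) and 735 in SPX1. A match is a description of the sequence and was not tested as a binding site.

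All samples had the transcript make-up of green tissue. The summed level of 6 photosynthesis genes lay between 24863 and 48833 TPM, and 9 of 12 root marker genes stayed under the filter. Of the other 3 root markers, MYB36 reached 1.41 TPM and CASP1 6.73 TPM, while PYK10, a β-glucosidase, reached 886 TPM. CASP2 was listed at 0 in 17 samples and AIR1 in 15. The photosynthesis sum was lower in Si than in CK shoots at each temperature with no overlap, with medians of 37632 in Si and 46258 TPM in CK at 22°C, 31591 in Si and 38116 TPM in CK at 25°C, and 26163 in Si and 32058 TPM in CK at 28°C. At 22°C LHCB1.3 carried most of that gap (7410 TPM in Si and 17402 TPM in CK). RBCS1A had a higher mean in Si at 22°C (18575 TPM in Si and 16111 TPM in CK) and 25°C (16537 TPM in Si and 15113 TPM in CK). The root marker sum, nearly all of it PYK10, was higher in Si, with medians of 294 in Si and 189 TPM in CK at 22°C, 547 in Si and 267 TPM in CK at 25°C, and 882 in Si and 779 TPM in CK at 28°C. CASP1 and MYB36 had lower means in Si at every temperature, with 1.47 TPM in Si and 5.15 TPM in CK for CASP1 and 0.29 TPM in Si and 1.24 TPM in CK for MYB36 at 28°C. The part that these shifts play in the values below was not tested. In whole shoots, a change in the number of cells that express a gene and a change in RNA per cell cannot be told apart.

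TPM is a share of a fixed total, so the scale matters for small differences. Over all genes tested, the log2 fold changes of Si against CK had medians of 0.26 (22°C), 0.26 (25°C) and 0.22 (28°C). Rescaling the libraries by the median of their gene ratios brought these medians to 0.0077 (22°C), 0.00083 (25°C) and -0.0011 (28°C). It also changed the split of called genes, from 1603 up and 268 down to 988 up and 503 down at 22°C, from 1891 up and 540 down to 1146 up and 846 down at 25°C, and from 1593 up and 344 down to 1037 up and 532 down at 28°C. A gene is called here when the limma test on log2(TPM + 1) gives an adjusted p of at most 0.05 and the log2 fold change exceeds 1 in either direction. The pseudocount of 1 understates the change of genes near or under 1 TPM.

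Inoculated shoots had more SPX1, MGD2 and PAP17 transcript at 22°C and more MGD2, MGD3 and PAP17 transcript at 25°C. No gene of the set passed the fold threshold at 28°C, which is not itself a test of a change with temperature. Tested by limma, the change of the difference between 28 and 22°C passed for SPX1 (-1.29, adjusted p = 0.0105). It did not pass for MGD2 (-0.42, adjusted p = 0.322), PAP17 (-0.45, adjusted p = 0.325) or MGD3 (-0.09). SPX1, MGD2 and PAP17 were called higher in Si at 22°C, which is 3 of the 8 genes tested against 8.00% of all genes called up. MGD2, MGD3 and PAP17 were called higher at 25°C, again 3 of 8, against 9.43% of all genes. MGD3 passed the filter mainly through Si samples, so its call is not independent of the filter. At 28°C limma called 0 of the 8, against 7.95% of all genes called up and 1.72% called down. Without adjustment 6 of the 8 had a p under 0.05, SQD2 lower in Si and the others higher. They include PECP1 and MGD3, and no share of all genes was taken for this count, so it is not read as a result. None was called lower at any temperature. With the adjusted p alone and no fold threshold, 7 of 8 were higher at 22°C and 7 at 25°C, against 47.4% and 47.8% of all genes. At 28°C 3 were then higher and 1 was lower, against 43.5% and 11.9% of all genes. One of these 3 is PECP1, which the Si samples at 28°C admitted to the test. The count of higher genes was smaller after rescaling by the median of gene ratios, with 4, 6 and 2 from 22 to 28°C, and after quantile normalization, with 4, 5 and 2. Under both scalings 1 was lower at 28°C.

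The 8 genes had median log2 fold changes of 0.62 (22°C), 0.77 (25°C) and 0.48 (28°C). These counts and medians leave out SPX3 and PS2. PECP1 passed the filter only through its 3 Si samples at 28°C, and MGD3 through 8 samples of which 7 were Si, so the genes that were tested are not a neutral draw from the 10. Counts above that include either gene are therefore not independent of the filter.

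**Figure D1:**
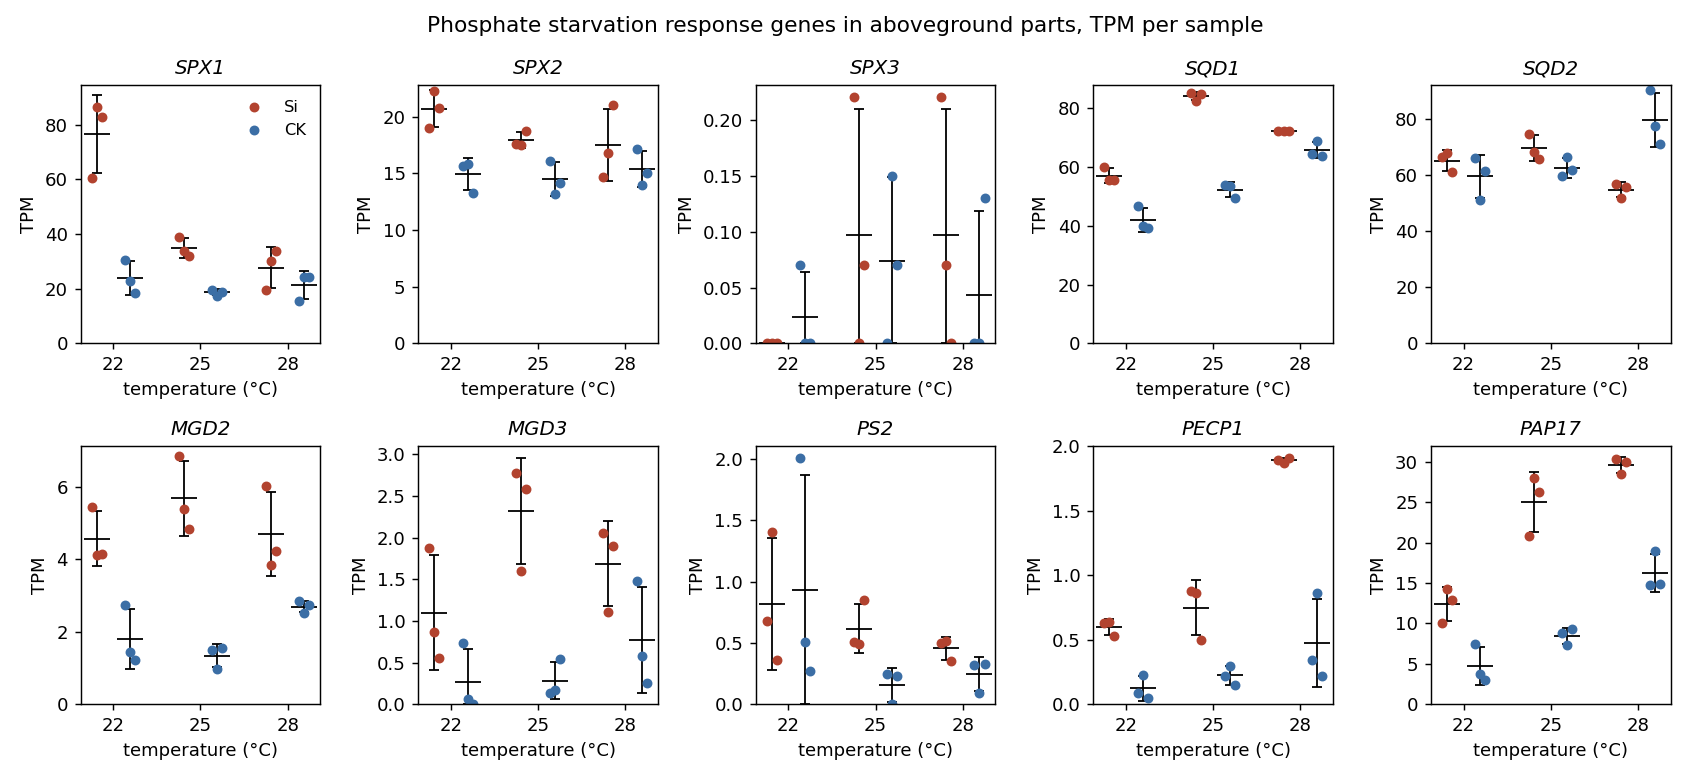
Level of each of the 10 genes (TPM, linear axis from 0, a separate scale for each gene) in Si shoots (red, left) and CK shoots (blue, right) at 22, 25 and 28°C. Points are samples, black dashes are group means and bars are the SD (n = 3), with the lower bar cut at 0. SPX1 in Si shoots is highest at 22°C (mean 76.6 TPM) while PAP17 in Si shoots is highest at 28°C (mean 29.6 TPM).

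SPX1 encodes a nuclear protein that binds PHR1 and holds it off DNA when phosphate is sufficient. The gene lies at chr5:6802282-6803655 on the plus strand. At 22°C it had 60.4, 86.5 and 82.9 TPM in Si shoots, against 30.6, 22.8 and 18.6 TPM in CK shoots. At 25°C the levels were 38.8, 33.9 and 32.0 TPM in Si and 19.7, 17.5 and 18.9 TPM in CK. At 28°C they were 19.4, 30.1 and 33.8 TPM in Si and 15.4, 24.4 and 24.2 TPM in CK. Every Si sample stood above every CK sample at 22 and 25°C, and the groups overlapped at 28°C.

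SPX1 was called higher in Si at 22°C, by 1.65 ± 0.22 on the log2 scale (SE; adjusted p = 1.46e-05), which was the largest difference of the 8 genes at that temperature on this scale. The difference was 0.86 ± 0.22 at 25°C (adjusted p = 0.00296), under the fold threshold, and 0.36 ± 0.22 at 28°C (adjusted p = 0.176). The test of the change between temperatures passed for 28 against 22°C, at -1.29 ± 0.31 (adjusted p = 0.0105), and it did not pass for 25 against 22°C (-0.78 ± 0.31, adjusted p = 0.118). The 22°C call held under all 27 alternatives tried, between 1.36 and 1.83, and the 28 against 22°C call under all 26, between -1.50 and -1.06.

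The warm temperatures lowered SPX1 within Si shoots. Its mean was 76.6 ± 14.1 TPM at 22°C, 34.9 ± 3.52 TPM at 25°C and 27.8 ± 7.45 TPM at 28°C (SD, n = 3). Against 22°C, SPX1 in Si fell by 1.10 at 25°C (adjusted p = 0.00268) and by 1.45 at 28°C (adjusted p = 7.78e-05) on the log2 scale. In CK shoots the mean was 24.0 ± 6.11 TPM at 22°C, 18.7 ± 1.16 TPM at 25°C and 21.3 ± 5.14 TPM at 28°C. Neither warm temperature was called against 22°C in CK.

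SPX2, a close relative of SPX1 with the same role in holding PHR1, moved less. At 22°C it had 19.0, 22.3 and 20.8 TPM in Si, against 15.7, 15.8 and 13.3 TPM in CK. At 25°C it had 17.5, 17.5 and 18.7 TPM in Si, against 16.1, 13.2 and 14.1 TPM in CK. At 28°C it had 14.7, 16.8 and 21.0 TPM in Si, against 17.1, 13.98 and 15.1 TPM in CK, and these overlapped. The Si values lay above all CK values at 22 and 25°C. The differences were 0.45 ± 0.11 at 22°C (adjusted p = 0.00374), 0.29 ± 0.11 at 25°C (adjusted p = 0.0373) and 0.17 ± 0.11 at 28°C (adjusted p = 0.235), none past the fold threshold. After rescaling by the median of gene ratios they were 0.16, 0.01 and -0.07. At 25 and 28°C the SPX2 differences were thus close in size to the shift over all genes (0.26 and 0.22), and the direction at 28°C turned. The 22°C difference was larger than the shift there (0.26), and its rescaled value did not pass the limma test (adjusted p = 0.252).

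SPX3, a smaller SPX protein whose transcript is known to accumulate in phosphate-starved plants, was close to absent. It was listed at 0 in all 3 Si samples at 22°C and did not exceed 0.22 TPM in any of the 18 samples. In Si shoots at 25°C it had 0.22, 0 and 0.07 TPM, against 0, 0.15 and 0.07 TPM in CK shoots. Its 2 promoter matches therefore stood before a gene that was hardly detected in these shoots, and no fold change is given.

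SQD1 makes the sulfoquinovose donor UDP-sulfoquinovose, and SQD2 joins that sugar to diacylglycerol to form the sulfolipid. Both were among the better expressed of the 10 genes, with means over 18 samples of 62.3 TPM for SQD1 and 65.2 TPM for SQD2, and they diverged at 28°C. SQD1 had 60.2, 55.5 and 55.7 TPM in Si and 46.7, 39.9 and 39.4 TPM in CK at 22°C. It had 85.1, 82.5 and 84.8 TPM in Si and 54.0, 53.5 and 49.4 TPM in CK at 25°C. At 28°C it had 72.4, 72.2 and 72.4 TPM in Si and 64.5, 69.0 and 64.0 TPM in CK. Every Si sample was above every CK sample at each temperature, with the smallest gap at 28°C.

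The SQD1 log2 difference was 0.44 ± 0.06 at 22°C (adjusted p = 2.42e-05), 0.68 ± 0.06 at 25°C (adjusted p = 2.14e-07) and 0.13 ± 0.06 at 28°C (adjusted p = 0.0732), none past the fold threshold. After rescaling by the median of gene ratios the 22°C value was 0.14 (adjusted p = 0.0548) and the 28°C value -0.11. The difference was smaller at 28 than at 22°C by -0.30 ± 0.09 (adjusted p = 0.0257). That call was lost when the fit used only the groups compared (adjusted p = 0.0593), after quantile normalization (0.0572), and without Si at 22°C replicate 1 (0.061), CK at 22°C replicate 2 (0.0625) or 3 (0.0574), or CK at 28°C replicate 2 (0.0678). Warmth itself went with more SQD1 in both treatments. Against 22°C the log2 difference in Si was 0.55 at 25°C and 0.34 at 28°C (adjusted p = 6.93e-05 and 0.000382), and in CK 0.31 at 25°C and 0.64 at 28°C (adjusted p = 0.00663 and 1.65e-06). With the rescaling, the 28°C value in Si was 0.12 (adjusted p = 0.113).

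SQD2 was the one gene of the 8 that was lower in Si by adjusted p at any temperature. At 28°C it had 56.7, 51.9 and 55.9 TPM in Si, against 90.2, 77.5 and 71.3 TPM in CK, with no overlap. At 22°C it had 66.6, 67.9 and 61.0 TPM in Si, against 66.3, 51.1 and 61.4 TPM in CK. At 25°C it had 74.7, 68.2 and 65.8 TPM in Si, against 59.7, 66.5 and 61.8 TPM in CK, and the groups overlapped at both of these temperatures.

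The SQD2 difference was -0.52 ± 0.09 at 28°C (adjusted p = 0.000268), under the fold threshold, and it kept its sign and an adjusted p of at most 0.00347 in all 27 alternatives. It was 0.13 ± 0.09 at 22°C (adjusted p = 0.239) and 0.15 ± 0.09 at 25°C (adjusted p = 0.191), and after rescaling by the median of gene ratios it was -0.16 and -0.15 there. The change between 28 and 22°C passed its own test, at -0.66 ± 0.13 (adjusted p = 0.0042), under the main settings and all 26 alternatives. With the adjusted p alone, SQD2 was lower at 28 than at 22°C within Si (-0.24, adjusted p = 0.0433) and higher within CK (0.42, adjusted p = 0.0022). The CK value was 0.15 after rescaling by the median of gene ratios (adjusted p = 0.226).

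MGD2 and MGD3 are the monogalactosyldiacylglycerol synthases of the outer plastid envelope that are known from phosphate-starved plants, as distinct from the housekeeping enzyme MGD1. Both were low in these shoots and had higher means in Si, with the largest difference at 25°C. The change of that difference between 25 and 22°C did not pass its test for MGD2 (0.49, adjusted p = 0.271) or for MGD3 (0.64). MGD2 had 5.45, 4.11 and 4.16 TPM in Si and 2.74, 1.44 and 1.22 TPM in CK at 22°C. It had 6.85, 5.39 and 4.85 TPM in Si and 1.5, 0.98 and 1.55 TPM in CK at 25°C. At 28°C it had 6.03, 3.86 and 4.22 TPM in Si and 2.84, 2.53 and 2.73 TPM in CK. No CK sample reached the lowest Si sample at any temperature.

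MGD2 was called higher in Si at 22°C (1.02 ± 0.19, adjusted p = 0.000354) and at 25°C (1.51 ± 0.19, adjusted p = 7.34e-06), and at 28°C the difference was 0.61 ± 0.19 (adjusted p = 0.0149), with 0.19 after quantile normalization (adjusted p = 0.448). The 25°C call held under all 27 alternatives, between 1.09 and 2.02. The 22°C value stood on the fold threshold. It was 0.91 without Si replicate 1, 0.94 without CK replicate 2, 0.88 without CK replicate 3, 0.83 after rescaling by the median of gene ratios and 0.60 after quantile normalization. Averaged over the 3 temperatures the difference was 1.05 ± 0.11 (adjusted p = 4.83e-07), which fell to 0.998 without CK at 22°C replicate 3 and to 0.99 without Si at 28°C replicate 1.

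MGD3 had 1.88, 0.87 and 0.55 TPM in Si and 0.73, 0.06 and 0 TPM in CK at 22°C. It had 2.78, 1.60 and 2.59 TPM in Si and 0.14, 0.17 and 0.54 TPM in CK at 25°C. At 28°C it had 2.06, 1.11 and 1.90 TPM in Si and 1.48, 0.58 and 0.26 TPM in CK. The groups were apart only at 25°C. MGD3 was called there, by 1.37 ± 0.29, with 0.99 after quantile normalization. The differences at 22°C (0.73 ± 0.29) and 28°C (0.64 ± 0.29) were under the fold threshold, and the one at 28°C did not pass the adjusted p either. No p is given for MGD3, because it passed the filter mainly through Si samples. With a pseudocount of 0.1 the 22°C difference was 2.18 and was called, so at levels near 1 TPM the call depends on that choice.

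PECP1 encodes a phosphatase that acts on phosphoethanolamine and phosphocholine, and PS2 (PPsPase1) a pyrophosphatase of the same enzyme family. PECP1 was under 1 TPM in every sample except Si at 28°C, where it had 1.89, 1.87 and 1.91 TPM, against 0.34, 0.86 and 0.22 TPM in CK. It had 0.63, 0.64 and 0.53 TPM in Si and 0.09, 0.23 and 0.05 TPM in CK at 22°C, and 0.88, 0.86 and 0.50 TPM in Si and 0.22, 0.30 and 0.15 TPM in CK at 25°C. The Si samples were above the CK samples at all 3 temperatures.

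For PECP1 the log2 difference was 0.51 ± 0.16 at 22°C (adjusted p = 0.012), 0.51 ± 0.16 at 25°C (adjusted p = 0.0118) and 0.996 ± 0.159 at 28°C, the last just under the fold threshold. No p is given for 28°C, because the Si samples there admitted PECP1 to the test. The 28°C value was 1.18, past the fold threshold, without CK replicate 2. With a pseudocount of 0.1 the differences were 1.73, 1.38 and 1.96, all past the fold threshold. After quantile normalization the 22 and 25°C values were 0.23 and 0.15. PECP1 thus had its highest level in the inoculated shoots at 28°C, where SPX1 had its lowest Si level.

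PS2 had 0.68, 1.41 and 0.36 TPM in Si and 2.01, 0.51 and 0.27 TPM in CK at 22°C. It had 0.51, 0.49 and 0.85 TPM in Si and 0.25, 0 and 0.23 TPM in CK at 25°C. At 28°C it had 0.50, 0.52 and 0.35 TPM in Si and 0.32, 0.09 and 0.33 TPM in CK. Si stood above CK at 25 and 28°C, and at 22°C the highest of all 18 values was a CK sample. Fitted without the filter, its differences were -0.02, 0.48 and 0.23 (adjusted p = 1, 0.219 and 0.68).

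PAP17 is a purple acid phosphatase that is widely used as a marker of phosphate starvation and that also responds to other stresses. It was apart between treatments at every temperature. At 22°C it had 10.1, 14.2 and 12.9 TPM in Si, against 7.43, 3.75 and 2.97 TPM in CK. At 25°C it had 20.9, 28.0 and 26.3 TPM in Si, against 8.80, 7.38 and 9.26 TPM in CK. At 28°C it had 30.4, 28.5 and 30.0 TPM in Si, against 14.8, 19.0 and 14.9 TPM in CK. Each group mean was higher at a warmer temperature, in Si as in CK.

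PAP17 was called higher in Si at 22°C (1.29 ± 0.21, adjusted p = 0.000103) and at 25°C (1.45 ± 0.21, adjusted p = 2.71e-05), and the difference was 0.84 ± 0.21 at 28°C (adjusted p = 0.00352). The 22°C value was 0.89 after quantile normalization, and the 25°C call held under all 27 alternatives. Averaged over the 3 temperatures, 7 of 8 genes had a higher level in Si by adjusted p alone, against 59.2% of all genes, and 0 a lower one, against 15.4%. The 7 include PECP1 and MGD3, which passed the filter only or mainly through Si samples. For PAP17 that mean difference was 1.20 ± 0.12 (adjusted p = 3.09e-07). PAP17 and MGD2 were the 2 genes of the 8 called on that mean, against 7.38% of all genes called up and 1.68% down. Neither was called with rescaling by the median of gene ratios (0.94 for PAP17 and 0.85 for MGD2) or with quantile normalization (0.90 and 0.63).

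Temperature also raised PAP17. Against 22°C, its log2 difference at 28°C was 1.20 ± 0.21 in Si (adjusted p = 3e-04) and 1.66 ± 0.21 in CK (adjusted p = 2.14e-05), both called. At 25°C it was 0.96 in Si (adjusted p = 0.00516) and 0.80 in CK (adjusted p = 0.0265). The 28°C value in Si was 0.99 after rescaling by the median of gene ratios. The PAP17 locus, chr3:6089381-6091231, shares 122 of its 1851 bases with AT3G17800 on the opposite strand. Whether reads were counted by strand is not given in the sources used here, so a part of the PAP17 values could belong to that gene. AT3G17800 had 27.6 ± 1.35 TPM in Si and 30.2 ± 1.80 TPM in CK at 22°C, 37.7 ± 3.76 TPM in Si and 29.3 ± 3.31 TPM in CK at 25°C, and 47.8 ± 1.05 TPM in Si and 36.8 ± 2.05 TPM in CK at 28°C. Its log2 difference was -0.12 at 22°C (adjusted p = 0.211), 0.36 at 25°C (adjusted p = 0.00136) and 0.37 at 28°C (adjusted p = 0.00126), the direction of PAP17 at the last pair of temperatures, and within Si it was also higher at 28 than at 22°C, by 0.77 (adjusted p = 3.71e-06). How much of the PAP17 values this overlap accounts for was not tested.

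**Figure D2:**
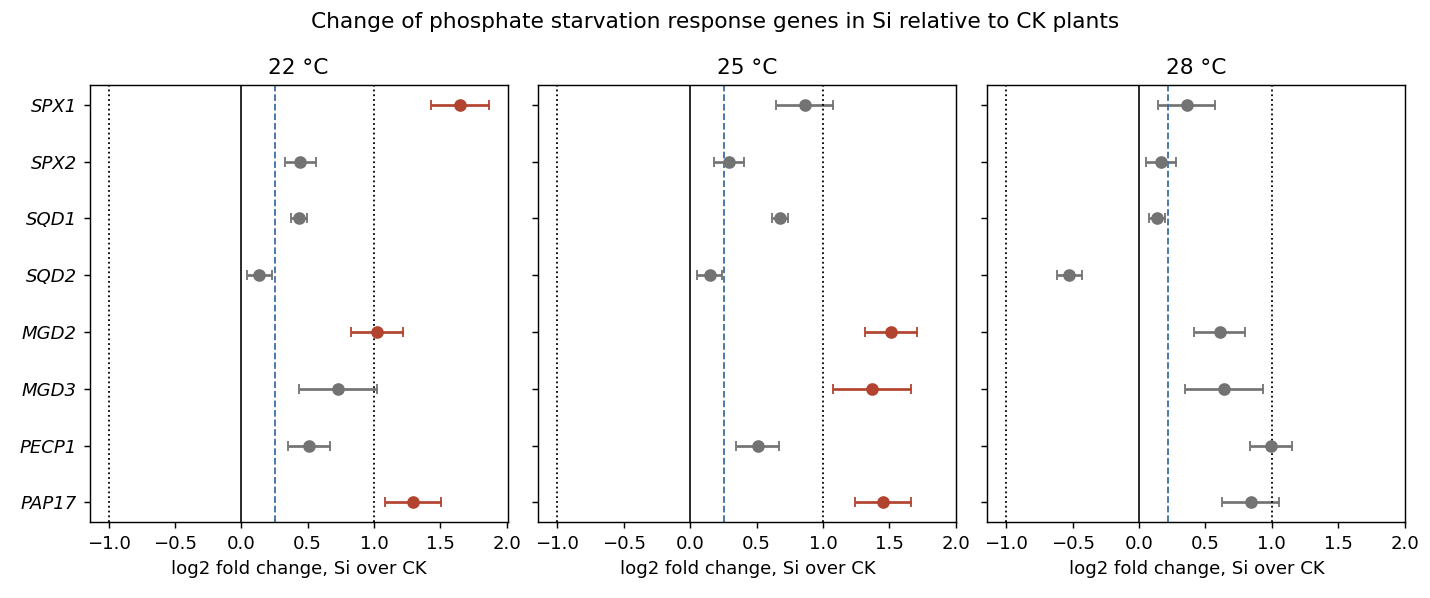
Log2 fold change of Si against CK on the log2(TPM + 1) scale for the 8 genes tested, at 22, 25 and 28°C. Points are limma estimates with bars for the SE, red where called, dotted lines mark -1 and 1, and the dashed blue line is the median of all genes tested. SPX1 is at 1.65, 0.86 and 0.36 from 22 to 28°C, and SQD2 lies below 0 only at 28°C (-0.52).

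Whether the Si against CK difference depended on temperature was tested by the interaction. The interaction of inoculation with temperature, 28 against 22°C, was called for 3 of the 8 genes, all downward (SPX1, SQD1 and SQD2), against 10.2% of all genes called downward and 6.92% upward. For 25 against 22°C limma called 0 of the 8, against 4.37% of all genes upward and 5.36% downward. An unadjusted p under 0.05 was found for 2 of the 8, a count for which no share of all genes was taken. Warmth within a treatment was called for few of them. Within Si, 1 was called down at 25°C (SPX1, against 1.32% of all genes), and at 28°C 1 up (PAP17, against 5.27%) and 1 down (SPX1, against 1.37%). Within CK, limma called 0 of 8 at 25°C, against 0.424% of all genes up and 0.145% down, and 1 up at 28°C (PAP17, against 4.24% up and 0.649% down). At 25°C 2 of 8 had an unadjusted p under 0.05, again without a share of all genes. With the adjusted p alone, the temperature tests within Si passed upward for 2 genes at 25°C (16.6% of all genes) and 3 at 28°C (39.0%) and downward for 1 at 25°C (7.06%) and 2 at 28°C (10.5%). The 3 at 28°C include PECP1, which entered the test through that group. Within CK they passed upward for 2 genes at 25°C (8.74%) and 3 at 28°C (41.2%), and downward for 0 at either temperature (2.40% and 7.81%). The comparisons share samples, since each warm group was set against the same 22°C group.

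Of the 10 genes, 6 had all Si samples above all CK samples at 22°C, as did 8 at 25°C and 5 at 28°C. SQD1, MGD2, PECP1 and PAP17 did so at all 3 temperatures. The share of all genes that did so at all 3 was not taken, so this is not read as a result about them. Over all genes tested this complete separation held for 49.3% at 22°C, 51.8% at 25°C and 49.5% at 28°C. These shares cover genes that passed the filter. The counts of the 10 also cover SPX3 and PS2, which did not, and PS2 is among the separated genes at 25 and 28°C. The reverse separation, seen in SQD2 at 28°C, held for 14.4% of all genes at that temperature.

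Some of the genes varied together among samples. Over the 18 samples the Pearson r of log2(TPM + 1) was 0.93 between SQD1 and PAP17, 0.88 between MGD2 and MGD3 and 0.81 between SPX1 and SPX2, and it was -0.27 between SQD2 and PECP1. These samples share treatments and temperatures. Taken within groups, as deviations from the group means, the values were 0.50, 0.67, 0.43 and 0.04, so the galactolipid synthases kept the most of their likeness among these pairs. A pair not listed here, SQD2 and MGD3, also had 0.67 within groups, with 0.22 over the 18 samples. Replicate 1 of Si at 22°C had the highest MGD2 and MGD3 and the lowest SPX1 of its group, and replicate 1 of CK at 22°C the highest SPX1, MGD2, MGD3, PS2 and PAP17 of its group.

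The 5 genes elsewhere in the genome whose pattern was most like the average standardised profile of the 8 were MIPS3, a myo-inositol phosphate synthase (r = 0.97 over 18 samples), GAE6, a UDP-glucuronate epimerase (0.97), the plastid chaperone cpHsc70-2 (0.97), AT5G51770 (0.97) and AT2G23950 (0.96). MIPS3 had 15.8 ± 1.25 TPM in Si and 3.76 ± 2.30 TPM in CK at 22°C, 20.3 ± 2.02 TPM in Si and 4.58 ± 0.24 TPM in CK at 25°C, and 18.3 ± 0.72 TPM in Si and 7.96 ± 0.60 TPM in CK at 28°C (SD, n = 3). The likeness is to a profile that these samples define, and the many genes that differ by treatment resemble it by construction. Among the further phosphate genes the closest was BHLH32, a transcription factor, with r = 0.93 and rank 228.

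The other phosphate genes were taken from a list of 50, covering regulators, transporters and enzymes, of which 38 passed the filter. Si against CK, 5 were called up and 1 down at 22°C, 4 up and 1 down at 25°C, and 5 up and 2 down at 28°C. Of all genes tested, 8.00% were called up at 22°C, 9.43% at 25°C and 7.95% at 28°C. The shares called down were 1.34%, 2.69% and 1.72%. The median log2 fold change of the 38 was 0.38, 0.30 and 0.26 at 22, 25 and 28°C, beside 0.26, 0.26 and 0.22 for all genes. The list as a whole therefore stood near the shift seen over all genes, and the calls were made on single members of it.

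AT4, a noncoding RNA that sequesters the phosphate-responsive microRNA miR399, was the one gene of the list called lower in Si at every temperature. It had 10.03 ± 5.35 TPM in Si and 28.0 ± 10.4 TPM in CK at 22°C, 2.39 ± 1.42 TPM in Si and 16.8 ± 3.25 TPM in CK at 25°C, and 0.94 ± 0.31 TPM in Si and 3.32 ± 0.72 TPM in CK at 28°C (SD, n = 3). AT4 was called lower in Si at all 3 temperatures, at -1.46, -2.47 and -1.16 (SE 0.36 each, adjusted p = 0.00284, 2.62e-05 and 0.0129), under the main settings and all 27 alternatives at each temperature. It also fell by 2.40 in Si and by 2.70 in CK at 28 against 22°C. At 22°C AT4 was therefore lower in Si while SPX1 was higher, and both genes are known to be induced when phosphate is short. Its relative IPS1 did not exceed 0.17 TPM.

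PPCK1, a kinase of phosphoenolpyruvate carboxylase, was called higher in Si at each temperature, at 1.97, 2.09 and 1.56 (SE 0.36 each), under all 27 alternatives. It had 24.8 ± 7.85 TPM in Si and 6.18 ± 4.43 TPM in CK at 22°C. GDPD5, a glycerophosphodiester phosphodiesterase, was called at each temperature, at 1.05, 1.18 and 1.35 (SE 0.08 each), and had 27.0 ± 1.26 TPM in Si and 10 ± 1.17 TPM in CK at 28°C. Its calls at 22 and 25°C were lost after rescaling by the median of gene ratios (0.79 and 0.91) and after quantile normalization (0.68 and 0.88), and the 22°C call also without CK replicate 2 (0.99). G3PP1, a glycerol-3-phosphate permease, was called at 1.03, 1.83 and 1.22 (SE 0.29 each). Only its 25°C call was free of alternatives that ended it. The 22°C value was 0.92 without Si replicate 2, 0.84 without CK replicate 2 and 0.74 without CK replicate 3. It was 0.85 with the rescaling and 0.63 with quantile normalization. In the limma fit of only the groups compared, its adjusted p at 22°C was 0.0786. The 28°C value was 0.99 with the rescaling and 0.91 with quantile normalization.

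Among the transporters, the phosphate importer PHT1;4 was called at 22°C (1.37 ± 0.21) and 25°C (1.32 ± 0.21), and after quantile normalization both were under the fold threshold, at 0.94 and 0.90. PHO1, which exports phosphate to the xylem, had 9.61 ± 0.71 TPM in Si and 2.87 ± 0.29 TPM in CK at 28°C, and was called there at 1.46 ± 0.11 (adjusted p = 4.89e-08). Its difference was larger at 25 than at 22°C by 0.76 and at 28 than at 22°C by 1.22 ± 0.15 (adjusted p = 0.00672 and 0.000165), opposite in sign to the change of SPX1, and both calls held under all 26 alternatives. PHT1;1 was called by temperature, at 28 against 22°C in Si (1.08) and in CK (1.19) and at 25 against 22°C in CK (1.60). It is close in sequence to PHT1;2 and PHT1;3, so its reads may be divided uncertainly among them. The 28°C calls of PHT1;1 were lost without Si replicate 3 (0.94) and without CK replicate 2 (0.96), and both after quantile normalization (0.78 in Si and 0.81 in CK). The call in Si was also lost after rescaling by the median of gene ratios (0.88).

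ZAT6, a zinc finger regulator of root phosphate responses, was called at 22°C (2.06 ± 0.28) and 28°C (1.11 ± 0.28), with 94.4 ± 26.2 TPM in Si and 21.3 ± 2.08 TPM in CK at 22°C. The 28°C value was 0.97 without CK replicate 2, 0.87 after rescaling by the median of gene ratios and 0.94 after quantile normalization. GDPD1, another glycerophosphodiester phosphodiesterase, had a negative interaction like SPX1. It had 95.9 ± 26.4 TPM in Si and 53.3 ± 3.94 TPM in CK at 22°C, but 29.7 ± 11.5 TPM in Si and 62.9 ± 27.3 TPM in CK at 28°C. The Si against CK difference of GDPD1 was 0.80 at 22°C and -1.04 ± 0.31 at 28°C, and the interaction of -1.84 ± 0.44 (adjusted p = 0.0113) was called under all 26 alternatives, and within Si GDPD1 fell by 1.303 at 25°C and by 1.70 at 28°C. The GDPD1 difference at 28°C was -0.70, -0.98 and -0.74 and not called without Si replicate 1, CK replicate 2 or CK replicate 3. The limma fit of only the groups compared also ended that call (-1.04, adjusted p = 0.073).

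The remaining interaction calls in the list were as follows. For 28 against 22°C they were PHO2, the ubiquitin-conjugating enzyme that miR399 targets (0.55), the housekeeping galactolipid synthase MGD1 (-0.36) and the acid phosphatase PAP10 (0.42), and for 25 against 22°C the inositol pyrophosphate kinase VIH2 (-0.22), the plastid transporter PHT2;1 (0.34) and GDPD1 (-1.59). MGD1 held under all 26 alternatives, whereas the calls of PAP10, VIH2, PHT2;1 and GDPD1 at 25°C were each lost when single libraries were left out. MGD1 had 59.5 ± 1.88 TPM in Si and 73.0 ± 0.997 TPM in CK at 28°C, and at that temperature SQD2 likewise had a lower mean in Si while MGD2 and PECP1 had higher ones.

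**Figure D3:**
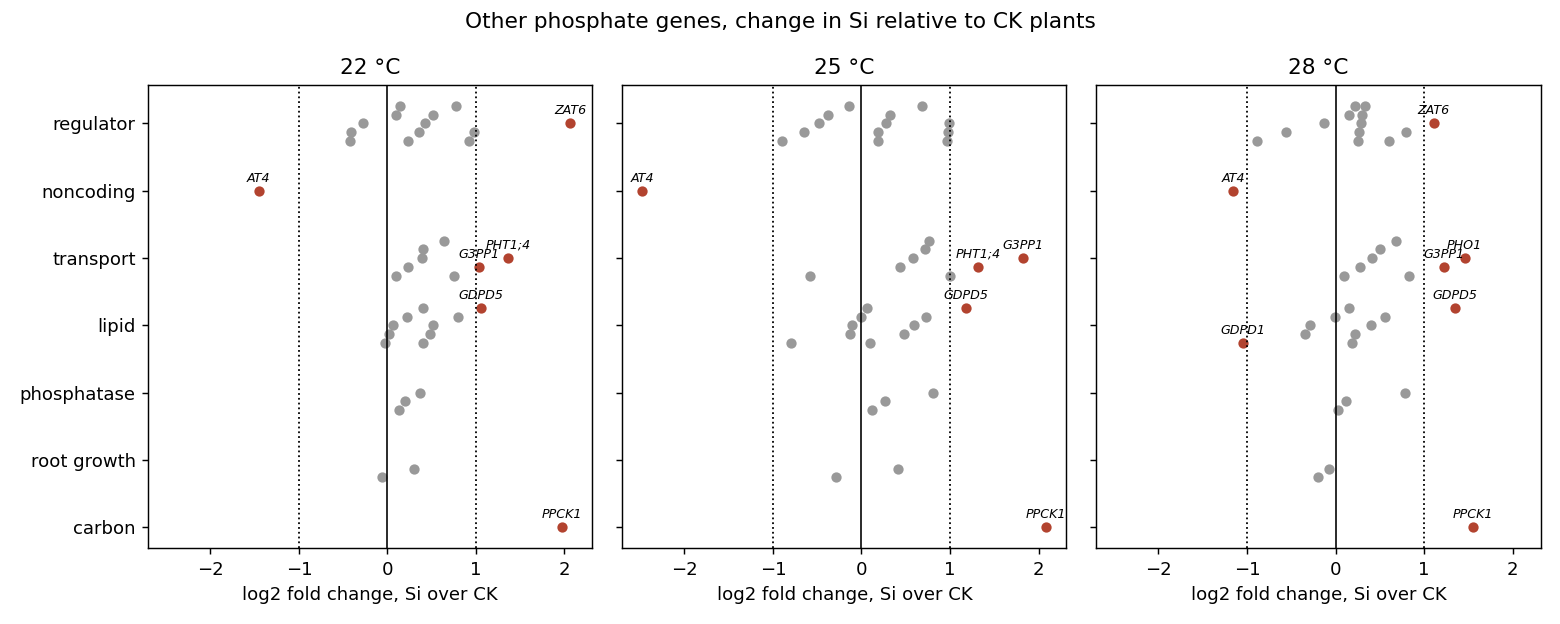
Log2 fold change of Si against CK on the log2(TPM + 1) scale at 22, 25 and 28°C for the 38 further phosphate genes that passed the filter, grouped by role. Each point is a gene, red and named where called. AT4 is the lowest point at every temperature (-1.46, -2.47 and -1.16), and PPCK1 is among the highest (1.97, 2.09 and 1.56).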

How the data were processed

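Total RNA of 18 shoot samples was sequenced by the authors. Per the labels, reads were trimmed with SeqPrep and Sickle, aligned with HISAT2 and assembled with StringTie, while the study's methods name RSEM for the TPM values and TAIR10 as the genome. Versions of these tools: not given in the sources used here. The authors deposited 1 table of TPM per gene with a transcript length (bases, in another column, used only to match transcripts). No read counts were used, so depth is unknown and no count model was run. All 18 columns matched a sample, and 0 sample columns were left unmapped. No columns were identical, replicates correlated at r = 0.975 to 0.984, and 17531 to 19509 genes reached 1 TPM per sample.

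Genes that reached 1 TPM in 3 or more samples were fitted on log2(TPM + 1) with limma 3.58.1 in R 4.3.3 (variance trend, 6 group means, 12 residual degrees of freedom, two-sided tests). P-values were adjusted by Benjamini-Hochberg over all 20044 genes in each of 10 comparisons. Interactions were called on adjusted p alone. The thresholds follow the study's methods, and the script was tested on simulated data. Alternatives were other pseudocounts, filters, scalings and thresholds, a fit of only the groups compared, a replicate block and leaving out each sample. Median-of-ratios factors were 1.02 to 1.21 in Si and 0.81 to 1.02 in CK samples.

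All 10 genes are named, as are phosphate genes of the wider list that were called (up to 6 per comparison, by size) and the 5 genes most like the members' mean profile. The members and lists were chosen with earlier results of these data known. All table lengths equal an annotated transcript, and no member transcripts share a stretch of 31 bases. Coordinates and sequences come from RefSeq, assembly TAIR10.1.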

Additional observations from a re-analysis of the deposited data

Results flagged for a closer look

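For 3 genes the Si against CK difference itself differed between 28 and 22°C by the interaction term in limma. The term was -1.29 on the log2 scale for SPX1 (adjusted p = 0.0105), -0.66 for SQD2 (adjusted p = 0.0042) and -0.30 for SQD1 (adjusted p = 0.0257). The SQD1 call was lost in 6 of 26 alternatives, while those of SPX1 and SQD2 held under all 26. The difference was smaller at 28°C for SPX1 and SQD1, and for SQD2 it was negative at 28°C (-0.52) and 0.13 at 22°C. SPX1 had 27.8 TPM in Si and 21.3 TPM in CK at 28°C, and 76.6 TPM in Si and 24.0 TPM in CK at 22°C. SQD2 had 54.8 TPM in Si and 79.7 TPM in CK at 28°C, and 65.2 TPM in Si and 59.6 TPM in CK at 22°C. SQD1 had 72.3 TPM in Si and 65.8 TPM in CK at 28°C, and 57.1 TPM in Si and 42.0 TPM in CK at 22°C.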

How the results depend on the processing

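Of the results for single genes under the alternatives, 2254 were of the same direction and call as in the main analysis, 115 lost the call, 46 gained one and 6 changed sign. The sign changes were SQD2 at 22°C (-0.16) and 25°C (-0.15), SPX2 at 28°C (-0.069) and SQD1 at 28°C (-0.11) after median-of-ratios scaling, and SQD2 at 22°C (-0.016) and SPX2 at 28°C (-0.099) after quantile normalization, none of them called before or after.

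Counts of the 8 genes called moved by more than 1.5 times as follows. A pseudocount of 0.1 gave 5 up at 22°C, 1 up at 28°C, 4 up on the mean of the temperatures, and, for temperature, 1 up at 25°C in Si, 2 up at 28°C in Si and 2 up at 28°C in CK. A pseudocount of 0.5 gave 1 up for Si against CK at 28°C and 2 up at 28 against 22°C in Si. Median-of-ratios scaling gave 0 up on the mean and 0 up at 28 against 22°C in Si. Quantile normalization gave 1 up at 22°C, 0 up on the mean and 1 upward interaction at 25°C. Without a fold threshold, which admits more genes by construction, 7 were up at 22°C, 7 at 25°C, 3 up and 1 down at 28°C and 7 up on the mean, and against 22°C 2 were up at 25°C and 3 up and 2 down at 28°C in Si, and 2 were up at 25°C and 3 at 28°C in CK. The promoter count was 6 with 1000 bases. Leaving out 1 sample gave 0 to 1 up at 28°C (PECP1, without CK replicate 2), 1 to 3 up on the mean (1 without CK at 22°C replicate 3), 0 to 1 up at 25 against 22°C in Si (without Si at 22°C replicate 2 or Si at 25°C replicate 1) and in CK (without CK at 22°C replicate 1), and 0 to 1 upward interactions at 28°C (without CK at 28°C replicate 2). Smaller moves were 4 up at 25°C with a pseudocount of 0.1, 4 up at 22°C and 3 on the mean with 0.5, 2 up at 22°C with median-of-ratios scaling, 2 up at 25°C with quantile normalization or a filter at 5 TPM, and 2 downward interactions at 28°C with quantile normalization or only the groups compared. Leaving out 1 sample gave 2 to 3 up at 22°C and 2 to 4 downward interactions at 28°C. Apart from the scalings, the pseudocount, the threshold and the window, the cause of these moves was not tested.

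By the rule that every same-numbered pair should correlate above 0.1, the replicate numbers were not taken to pair the samples. Deviations of same-numbered samples correlated at a median r of 0.055 (range -0.067 to 0.18 over 45 pairs), with 8 of 45 pairs over 0.1. Differently numbered pairs had a median of -0.019 and a highest r of 0.098, with 0 of 90 over 0.1, and 15 of 18 samples correlated best with their own number, a hint of shared structure from the data. With a replicate block, 3 genes were called up at 22°C, 3 at 25°C and 0 at 28°C, as without it, and no count of the 8 genes moved. The block ended the interaction calls of VIH2 (adjusted p = 0.0569) and PAP10 (adjusted p = 0.0562). Without counts, levels under 1 TPM, as in SPX3, PS2 and most PECP1 samples, carry an unknown counting error.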
